A study of Arabidopsis thaliana with 357 samples.

Results

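The plasma membrane intrinsic proteins (PIPs) are the aquaporins of the plant cell surface. Each is a channel protein that passes water across the plasma membrane, and several also pass hydrogen peroxide or carbon dioxide. The PIP1 and PIP2 subfamilies assemble into tetramers, in which PIP2 partners help PIP1 proteins to reach the plasma membrane, and in leaves they set much of the water flow from the veins into the mesophyll. PIP2;1 takes part in stomatal closure after abscisic acid and flg22 and is a route for hydrogen peroxide into guard cells, and PIP1;4 carries apoplastic hydrogen peroxide into the cell during immune responses.

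The transcript levels of 10 PIP genes were followed in leaves of Arabidopsis thaliana treated with flg22, the flagellin peptide that the receptor kinase FLS2 perceives. The genes were chosen by their locus codes, with earlier results of these data known, from a count table of 33600 genes. They are called here by the letter names of the RefSeq annotation. The PIP1 genes are PIP1A (PIP1;1, AT3G61430), PIP1B (PIP1;2, AT2G45960), PIP1C (PIP1;3, AT1G01620), PIP1E (PIP1;4, AT4G00430) and PIP1D (PIP1;5, AT4G23400). The PIP2 genes are PIP2A (PIP2;1, AT3G53420), PIP2B (PIP2;2, AT2G37170), PIP2E (PIP2;6, AT2G39010), PIP3A (PIP2;7, AT4G35100) and PIP3B (PIP2;8, AT2G16850). They lie on chromosomes 1 to 4, and PIP1C and PIP1E, for example, stand at chr1:225665-227543 and chr4:185285-187680 of TAIR10.1. Of the 10 genes, 9 passed the filter on low counts that left 11848 genes for testing, and PIP3B did not.

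The study profiled 17 genotypes at 7 times with 3 biological replicates each, 357 libraries in all. A capital letter in a genotype name stands for an intact signaling sector and a small letter for a sector removed by a mutation: j for jasmonate (dde2-2), e for ethylene (ein2-1), p for PAD4 (pad4-1) and s for salicylate (sid2-2). The genotypes were 15 mutants that cover every combination of these 4 alleles, jeps carrying all 4, then the wild type Col-0 (JEPS), and fls2, a null mutant of the receptor gene. Leaves of stages 7 to 9 of plants aged 31 to 32 days, grown under a 12 h photoperiod, were infiltrated by syringe with 1 µM flg22 in every genotype, fls2 included, and were harvested at 6 later times (1, 2, 3, 5, 9 h and finally 18 h), whereas the leaves at 0 h were untouched. Each library held the leaves of 4 plants from 4 separate experiments, 3 leaves per plant. The change in fls2 leaves holds the infiltration and the time of day together, and these cannot be told apart. These are whole leaves, in which fewer cells of a type and less RNA per cell cannot be told apart.

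Libraries held 372525 to 5130803 reads on genes (median 1275620), and levels are given as normalized read counts, that is, counts scaled so that the 90th percentile of each library equals 300. The targeted genes matched the labels: FLS2 had a median of 7.59 in the 21 fls2 libraries and of 129.9 in the 336 others, and the medians of DDE2, EIN2, PAD4 and SID2 were likewise lower in the libraries that carry the respective mutation. As sums over each set, markers of mesophyll, guard cells, phloem companion cells and epidermis were read in every library. The epidermis marker PDF1 alone had a mean of 0 in JEPS at 0 h. JEPS and fls2 libraries of the same time and replicate shared a sequencing lane in 0 of 21 pairs, whereas jeps and fls2 did in 20 of 21.

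The stretches of 250 bases upstream of 3 genes are shown because these genes stand at the ends of the patterns described below: PIP3A had the lowest levels relative to 0 h, PIP2E was never called in fls2 alone, and PIP1E had the largest mean effect of the dde2-2 mutation. They were read from TAIR10.1 in the direction of transcription, 5′ to 3′, and capitals mark TTGAC, the core of the W-box that WRKY factors bind, and GATAA, with their reverse complements.
PIP3A, chr4:16708111-16708360, plus strand: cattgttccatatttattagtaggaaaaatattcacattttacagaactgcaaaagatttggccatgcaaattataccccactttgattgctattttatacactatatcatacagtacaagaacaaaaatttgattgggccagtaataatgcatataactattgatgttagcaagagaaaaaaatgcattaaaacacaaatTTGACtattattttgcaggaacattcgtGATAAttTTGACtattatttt
PIP2E, chr2:16291030-16291279, plus strand: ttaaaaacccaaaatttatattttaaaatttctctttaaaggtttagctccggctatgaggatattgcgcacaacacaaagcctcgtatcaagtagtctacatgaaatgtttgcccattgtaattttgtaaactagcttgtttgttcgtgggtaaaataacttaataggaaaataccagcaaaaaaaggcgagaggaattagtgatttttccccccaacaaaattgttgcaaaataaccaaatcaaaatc
PIP1E, chr4:187681-187930, minus strand: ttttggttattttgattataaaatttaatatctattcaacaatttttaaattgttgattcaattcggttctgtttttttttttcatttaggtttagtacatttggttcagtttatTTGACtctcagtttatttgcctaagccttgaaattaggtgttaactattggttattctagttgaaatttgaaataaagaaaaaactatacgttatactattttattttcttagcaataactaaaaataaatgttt
On either strand, TTGAC stood in 5 of the 10 PIP stretches (PIP1C, PIP1E, PIP1D, PIP2A and PIP3A), against 44.9% of 27443 upstream stretches of the same length. GATAA stood in 4 of the 10 (PIP1A, PIP1B, PIP1D and PIP3A), against 54.9% of all stretches. The letters ACGT were found upstream of PIP1E and PIP2A, against 44.1% of all. None of the 10 held the G-box CACGTG (6.49% of all), the evening element AAATATCT (4.79%), the GCC box AGCCGCC (0.587%), CGCGT (6.87%) or the telo-box AAACCCTA (4.49%). These shares are descriptions of the letters and say nothing of binding.

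In untreated leaves the PIP genes spanned a wide range of levels. Tag-Seq reads come from the transcript end, about 1 per transcript, so levels of different genes are set side by side without a length correction. Over the 51 untreated libraries PIP2A had the highest median, 8862 (range 3414 to 12360), followed by PIP1B with 7598 (5280 to 9565). PIP1A (3502), PIP2E (3350), PIP1D (2695) and PIP3A (2073) formed the middle of the order, and PIP1C (1677), PIP1E (1228) and PIP2B (1044) stood below them. PIP3B, at a median of 13.8, was nearly unread, with 0 to 10 reads per library and no read in 83 of the 357 libraries.

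Several neighbours in this order did not separate. PIP2A exceeded PIP1B in 33 of 51 libraries, PIP1A exceeded PIP2E in 31, and PIP2E exceeded PIP1D in 31. In the 17 untreated libraries of replicate 3 the order differed, with medians of 6257 for PIP1B, 5346 for PIP1D and 4772 for PIP2A. PIP1B exceeded PIP1A in all 51 untreated libraries, and PIP3A exceeded PIP1C in 47. No tested PIP gene was called different from JEPS in the untreated leaves of any of the other 16 genotypes. By edgeR's quasi-likelihood F-test with Storey q-values, 0 of 144 gene and genotype pairs were called, and 0 had an unadjusted p under 0.05. The model of this test had no replicate term, so level differences between replicate numbers, as in PIP2A, entered its spread. The log2 differences lay between -0.31 and 0.55. With a term for the replicate number in the model, 0 were called as well. An uncalled pair does not show equal levels. Of all genes tested, 1.52% were called in at least 1 of the 16 comparisons. Here and below, called means q under 0.05 and a log2 difference beyond 1 in size, unless stated otherwise.

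**Figure D1:**
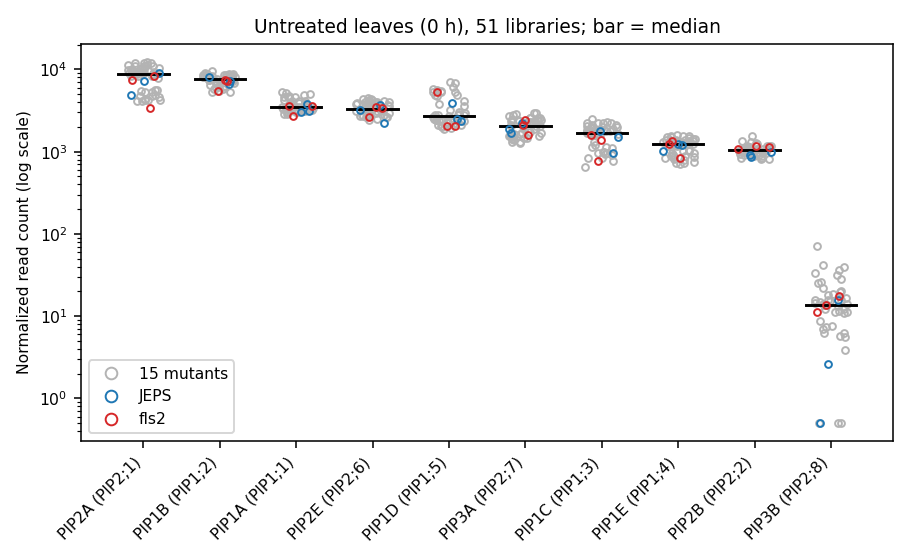
Normalized read counts (log axis) of the 10 PIP genes in the 51 untreated libraries, with 1 point per library, grey for the 15 mutants, blue for JEPS and red for fls2, and a bar at the median. Libraries without PIP3B reads are drawn at the foot of the axis, and the medians run from 8862 for PIP2A to 13.8 for PIP3B.

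In leaves without the receptor, the levels of these PIP genes were low at several times after infiltration. In fls2, the summed level of the 10 genes was 6767, 10102 and 8145 at 1 h, 11906, 10800 and 9596 at 2 h, 26382, 23009 and 21210 at 3 h, 13380, 15092 and 16251 at 5 h, 11358, 11856 and 13959 at 9 h, and 27450, 23422 and 28154 at 18 h, against 29424, 30162 and 25694 at 0 h. The sum was thus lowest at 1 h, near its 0 h values at 3 h, low again at 5 and 9 h, and near the 0 h values at 18 h. By the edgeR test, 8, 6, 3, 4, 5 and 2 of the 9 tested genes were lower than at 0 h at the 6 times in order, and none was higher. Of all genes tested, 22.1%, 16.2%, 10.1%, 8.04%, 7.94% and 2.04% were lower at these times and 18.4%, 18.4%, 13.7%, 9.87%, 10.1% and 3.71% were higher.

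The genes differed in how fls2 leaves changed. PIP2A fell most at 1 h, to 367.8, 932.8 and 426.3, against 7402, 8418 and 3414 at 0 h (log2 change -3.49, SE 0.48, q = 8.6e-10). PIP2B, PIP1B and PIP1A followed at 1 h with log2 changes of -3.25, -3.07 and -2.99. At 3 h none of these 3 genes was called lower than at 0 h, with log2 changes of 0.84, -0.04 and 0.48. PIP1A was called lower again at 9 h (-1.47). PIP1B (-0.77 and -0.92 at 5 and 9 h) and PIP2B (-0.09 and -0.15) were not called at these times.

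PIP1D and PIP3A stayed lower than at 0 h at every time in fls2, with log2 changes of -1.06 to -2.65 and of -1.34 to -2.22. PIP2E was the exception. It had 3157, 4317 and 3887 at 1 h, against 2669, 3406 and 3452 at 0 h, and was called at no time in fls2 (log2 change 0.25 at 1 h). Its changes of -0.56, -0.84 and -0.52 at 5, 9 and 18 h had q under 0.05 by the edgeR test but were within the size limit of 1. The ranges of PIP2E at 1 h and 0 h overlapped.

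With the receptor, PIP levels were lower still. In JEPS the summed level of the 10 genes was 3007, 3189 and 3330 at 1 h, 2379, 2051 and 2011 at 2 h, 4155, 4024 and 5529 at 3 h, 3607, 6209 and 5336 at 5 h, 6297, 5461 and 6315 at 9 h, and 12610, 10993 and 12153 at 18 h, against 27607, 31678 and 28329 at 0 h. At every time after infiltration, each JEPS sum was below each fls2 sum. At 3 h it stood at 15.6% of its 0 h mean (SD 2.86, n = 3). In JEPS 9, 9, 9, 7, 7 and 5 of the 9 genes fell below their 0 h level at the 6 times in order, against 35.5%, 30.9%, 28.4%, 25.1%, 21.3% and 18.7% of all genes. None rose, against 20.3%, 23.6%, 23.0%, 23.4%, 21.4% and 17.1% of all genes. The largest fall was that of PIP3A at 9 h, to 35.8, 32.3 and 69.9, against 2214, 1903 and 1676 at 0 h (log2 change -5.39, SE 0.38).

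**Figure D2:**
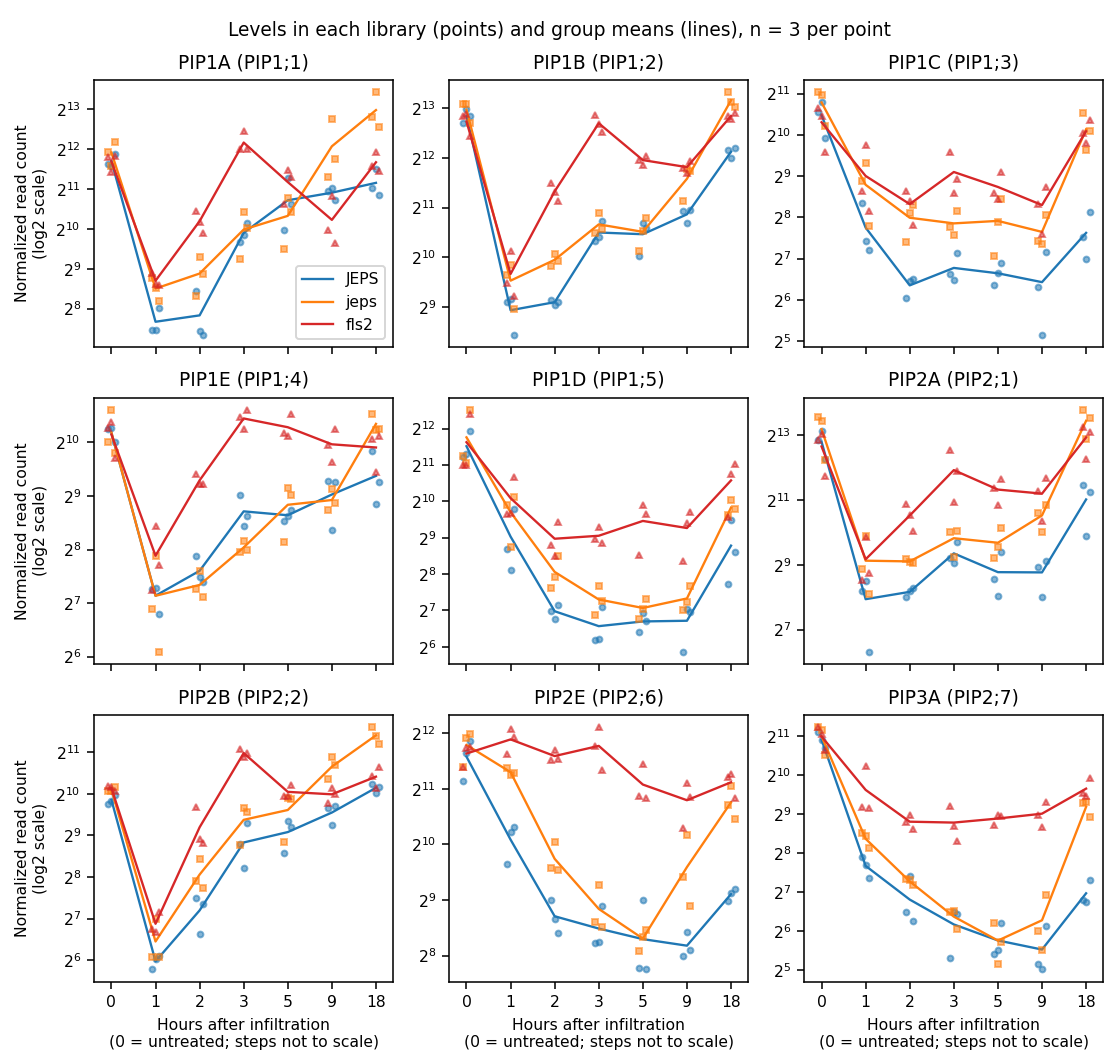
Normalized read counts (log2 axis, its range set for each gene) of the 9 tested PIP genes at 7 times from 0 to 18 h, with 1 point per library and lines through the means of 3 libraries, in JEPS (blue circles), jeps (orange squares) and fls2 (red triangles). PIP2E and PIP3A show the widest gaps between JEPS and fls2, and at 18 h the jeps mean stands above the JEPS mean in all 9 genes.

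The flg22 response of a gene was taken as its change from 0 h in JEPS minus the change in fls2 at the same time, which asks what perception of the peptide adds to infiltration and time of day. All 9 tested genes of the chosen set were called lower in JEPS at 1 or more times, and none was called higher at any time. The set was chosen with earlier results of these data known, and of 3 PIP genes outside it 2 were tested and 0 were called. Both were read at lower levels at 0 h than the 9 genes, and an uncalled gene does not show a lack of response. By edgeR's F-test with Storey q-values, 2, 8, 9, 7, 4 and 3 of 9 were called lower at the 6 times from 1 h to 18 h. Of all genes, 3.70%, 8.08%, 13.6%, 13.5%, 8.73% and 7.07% were called lower at these times, and 21.1% at 1 or more times. Those called higher made up 3.66%, 4.19%, 6.21%, 7.27%, 5.56% and 5.76%. The median log2 difference of the 9 genes was -1.04, -2.12, -2.34, -2.25, -2.04 and -1.68, beside medians over all genes of -0.28, -0.30, -0.22, -0.01, 0.02 and 0.00. With edgeR's TMM scaling in place of the 90th percentile, the median of all genes moved up by 0.24, 0.27 and 0.24 at 1, 2 and 3 h, and all called PIP genes kept their direction.

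PIP2E responded early and throughout. At 1 h it had 801.4, 1190 and 1265 in JEPS, against 3157, 4317 and 3887 in fls2, and the difference of responses was -1.75 (SE 0.38, q = 0.0014). At 3 h it had 300, 301.5 and 474.2 in JEPS, against 3486, 4418 and 2575 in fls2, with no overlap and a difference of -3.22 (SE 0.39, q = 5.3e-11), the largest among the 9 genes at that time. At 18 h it was still lower, at 508.1, 559.3 and 585.0 in JEPS and 2381, 2456 and 1823 in fls2 (difference -1.96, SE 0.39, q = 0.00023).

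PIP3A was the other gene called at all 6 times. Its difference was -1.86, -1.99, -2.52, -3.03, -3.41 and -2.58 at the 6 times in order, so it was widest at 9 h, when PIP3A had 35.8, 32.3 and 69.9 in JEPS and 509.3, 409.9 and 631.5 in fls2 (SE 0.49, q = 4.9e-08). The JEPS and fls2 ranges were far apart at that time. PIP2A was called from 2 to 9 h, with 588.8, 532.3 and 837.1 in JEPS at 3 h, against 5904, 1938 and 3764 in fls2 (difference -2.71, SE 0.67, q = 0.0093).

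The PIP1 genes were called lower mostly at 2, 3 and 5 h, though PIP1C differed most at 18 h. PIP1B had 570.0, 529.1 and 549.6 in JEPS at 2 h, against 2900, 2546 and 2261 in fls2, and was called at 2, 3 and 5 h (differences -2.34, -2.31 and -1.60). PIP1E was called at the same 3 times, with differences of -1.72, -1.77 and -1.67. PIP1C was called at 2, 3, 5 and 18 h (-2.12, -2.47, -2.25 and -2.60) and PIP1D at 3, 5 and 9 h (-2.34, -2.65 and -2.47).

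PIP1A and PIP2B had short responses. PIP1A was called at 2 and 3 h (-2.38 and -2.28), and at 9 h it had 1987, 2074 and 1707 in JEPS, against 997.7, 1800 and 795.1 in fls2, a difference of 0.67 that was not called (q = 0.77). PIP2B was called at 2 and 3 h (-1.69 and -1.86) and differed by 0.01 at 18 h. Of the last 400 bases of the PIP2B transcript, 8.36% of 30-base windows also occur in PIP2A or in PIP2;3 (AT2G37180), so part of its count is uncertain.

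**Figure D3:**
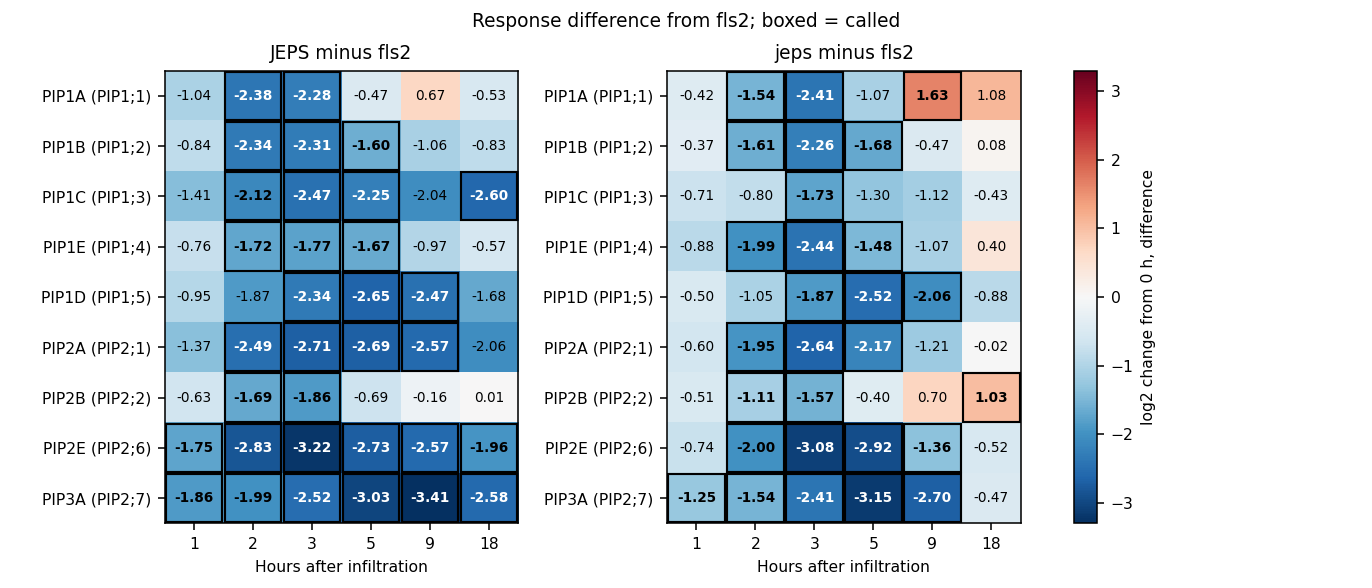
Difference of log2 responses (change from 0 h) between JEPS and fls2 (left) and between jeps and fls2 (right) for the 9 tested PIP genes at 6 times in hours. Boxed cells were called (q under 0.05 and beyond 1 in size), the color runs from blue (lower than fls2) to red (higher), and all 9 genes are boxed blue at 3 h in both panels.

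Leaving out a replicate cost many of these calls. Of the 33 gene and time pairs called in JEPS, 15, 17 and 25 were called without replicate 1, 2 and 3, and at 3 h 4, 5 and 8 of the 9 genes. With TMM scaling, PIP1C, PIP1E and PIP2A at 2 h and PIP1E and PIP1D at 3 h were no longer called (28 of 33 kept). JEPS and fls2 shared a sequencing lane in 0 of 21 pairs of the same replicate and time, and at 5 h their replicate 2 libraries were sequenced at different machine locations, per the labels. With a term for the lane, each lane belonging to 1 location, all 33 calls remained. The summed level of the 4 mesophyll markers, which are genes of Rubisco and the light-harvesting antenna, was 22747 to 34716 in JEPS at 3 h, against 50429 to 90875 in fls2, and 150218 to 232370 in JEPS at 0 h, against 136978 to 249143 in fls2, and 3 of these 4 were called lower in JEPS. Its part in the PIP response was not tested. Of the markers of guard cells, phloem companion cells and epidermis, 7 were tested and 0 were called in either direction. The 3 root markers summed to 112 to 127 in JEPS at 3 h and 5.88 to 24.5 in fls2, and none passed the filter.

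The mutant jeps, which lacks all 4 sectors, was set against fls2 in the same way. The fls2 leaves have all 4 sectors, and no mutant combination was profiled without the receptor. What is left of the flg22 response and effects of the mutations on the infiltration and time of day part thus cannot be told apart. PIP genes were again called lower than in fls2 up to 9 h, and at 18 h none was. Of the 9 genes, 1, 7, 9, 6, 3 and 0 were called lower in jeps at the 6 times in order, against 2.77%, 5.15%, 15.0%, 17.7%, 8.34% and 1.61% of all genes. At 3 h the differences ran from -1.57 for PIP2B to -3.08 for PIP2E. This comparison uses the same fls2 libraries as that of JEPS.

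PIP2E at 3 h had 390.0, 617.4 and 366.7 in jeps, against 3486, 4418 and 2575 in fls2 (difference -3.08, SE 0.39, q = 2.8e-11). PIP3A at 5 h had 74.1, 35.3 and 52.4 in jeps, against 425.3, 503.0 and 493.8 in fls2 (difference -3.15, SE 0.49, q = 5.3e-08). By 18 h PIP3A had 621.0, 641.6 and 487.5 in jeps, against 746.8, 705.6 and 969.2 in fls2, and the difference of -0.47 was not called. Both genes thus reached jeps levels far below fls2 at 3 and 5 h.

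Higher levels than in fls2 appeared late in jeps, in PIP1A and PIP2B. PIP1A at 9 h had 2529, 6921 and 3485 in jeps, against 997.7, 1800 and 795.1 in fls2, with no overlap (difference 1.63, SE 0.46, q = 0.0044). Against its own 0 h level, PIP1A at 9 h was not called in jeps (log2 change 0.16) and was called lower in fls2 (-1.47). PIP2B at 18 h had 3123, 2682 and 2353 in jeps, against 1369, 1133 and 1592 in fls2 (difference 1.03, SE 0.38, q = 0.033). No other PIP gene was called higher at any time, and of all genes 3.66%, 5.11%, 9.16%, 11.0%, 7.65% and 3.37% were called higher at the 6 times in order. Without replicate 3, PIP1A at 9 h kept a difference of 1.62 with q = 0.073, and the PIP2B call was lost without replicate 1 (0.88), without replicate 2 (0.89), without the filter on low counts and with a term for the sequencing lane (0.90). Of the 28 pairs called in jeps, 17, 21 and 22 remained called without replicate 1, 2 and 3.

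Set against their own 0 h levels, 8, 9, 8, 8, 7 and 3 of the 9 genes fell in jeps at the 6 times in order, against 27.1%, 24.4%, 26.8%, 25.1%, 17.4% and 6.31% of all genes. None rose before 18 h, against 20.5%, 22.4%, 22.2%, 23.3% and 19.1% of all genes at the earlier times. At 18 h PIP1A and PIP2B rose, by log2 changes of 1.06 and 1.30, against 10.1% of all genes. PIP1A reached 7218, 11017 and 6053 in jeps at 18 h, against 3874, 3068 and 4669 at 0 h.

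The mean effect of each mutation was taken over the 16 combinatorial genotypes, as the mean of the 8 with it minus that of the 8 without it. The quantity was the log2 level at 0 h and, at later times, the change from 0 h, called here the response of a genotype. Effects were called at q under 0.05 with no minimum size. No mutant combination was profiled without the receptor, so effects on the flg22 part and on the infiltration and time of day part cannot be told apart. PIP responses were higher with ein2-1 and lower with dde2-2, mainly at 2 and 3 h, and higher with ein2-1, sid2-2 or pad4-1 at 18 h. At 0 h none of the 9 genes was called for any of the 4 mutations.

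With ein2-1, which blocks ethylene signaling, 2, 8, 4, 1, 2 and 9 of the 9 genes were higher at the 6 times in order, against 6.11%, 13.0%, 7.28%, 3.33%, 2.35% and 8.32% of all genes, and none was lower. PIP2B at 2 h ranged from 130.2 to 822.3 (median 313.4) in the 24 libraries with ein2-1, against 47.8 to 462.4 (median 114.6) in the 24 without it, an effect of 1.30. PIP1A at 2 h had medians of 505.8 with ein2-1 and 198.4 without it, an effect of 1.17. The ranges of both genes overlapped. At 18 h the effect was largest for PIP3A, with medians of 454.2 with ein2-1 and 192.2 without it (1.13), and for PIP1C (1.01). Many of these calls rested on the full set of libraries: at the 6 times in order, 0, 4, 1, 0, 1 and 3 of them remained without replicate 1, 0, 5, 1, 1, 1 and 4 without replicate 2, and 1, 8, 3, 1, 2 and 7 without replicate 3.

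With dde2-2, which blocks jasmonate synthesis, 1, 5, 6, 3, 1 and 0 of the 9 genes were lower at the 6 times in order, against 4.53%, 5.55%, 5.17%, 3.17%, 1.47% and 0.743% of all genes, and none was higher. PIP1E at 3 h ranged from 103.7 to 408.5 (median 201.2) in the libraries with dde2-2, against 346.2 to 746.4 (median 550.4) in those without it, an effect of -1.49. The ranges overlapped only at their ends. PIP1E at 2 h (-1.42), PIP2B at 2 h (-1.13) and PIP1A at 3 h (-1.01) were the other effects beyond 1 in size. PIP1C and PIP1D were called at no time for dde2-2, with effects of 0.33 and 0.21 at 2 h. Of the calls at 2 and 3 h, 4 and 5 remained without replicate 1, 4 and 6 without replicate 2, and 5 and 5 without replicate 3, whereas of the 3 at 5 h 1, 1 and 0 remained.

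The mutations pad4-1 and sid2-2 had called effects only at 9 and 18 h. With pad4-1, PIP1A (0.58) and PIP3A (0.85) were higher at 18 h, against 4.26% of all genes. With sid2-2, which blocks salicylate synthesis, PIP1A (0.62) and PIP2E (0.43) were higher at 9 h, against 3.78% of all genes. At 18 h 5 genes were higher with sid2-2, against 6.30% of all genes: PIP2A (0.83), PIP1C (0.76), PIP3A (0.76), PIP1A (0.75) and PIP1B (0.43). Without replicate 1, 2 and 3, 1, 3 and 5 of these 5 calls remained, and 1, 2 and 1 of the 2 for pad4-1. At 9 h the PIP2E call for sid2-2 was lost without each replicate in turn, and that of PIP1A without replicate 1 and without replicate 3. The differences between the effects of different mutations were not tested.

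**Figure D4:**
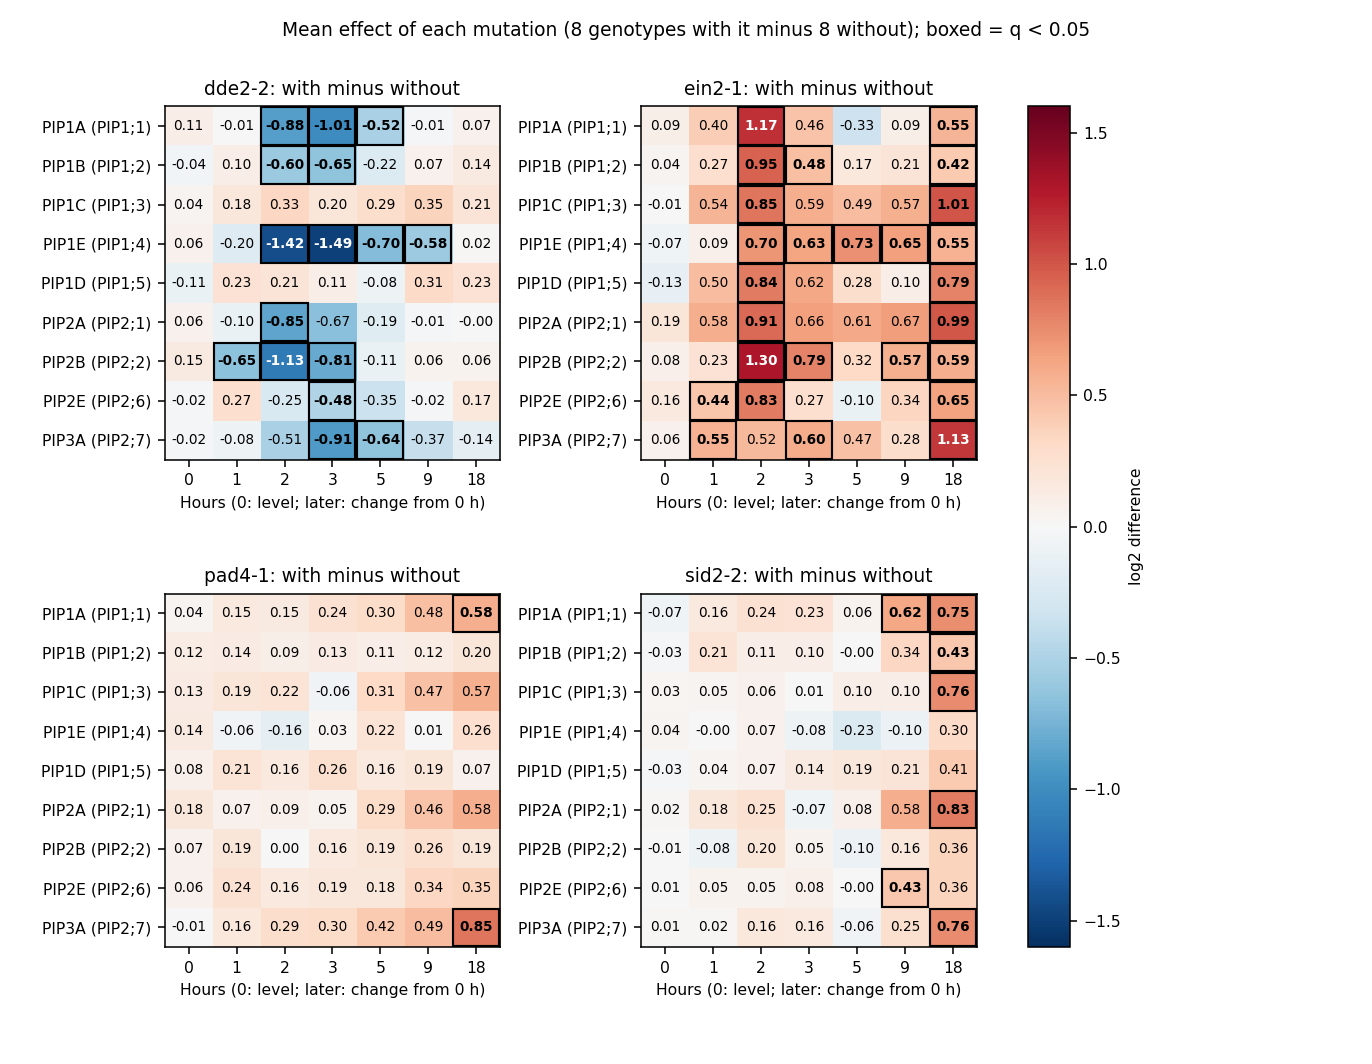
Mean effect of each of the 4 mutations on the 9 tested PIP genes, as the log2 level (0 h) or the log2 change from 0 h (1 to 18 h) averaged over the 8 genotypes with the mutation minus the 8 without it. Boxed cells had q under 0.05, and the boxes are blue for dde2-2 and red for the other 3 mutations.

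The changes from 0 h of single mutants and higher combinations were also set against that of JEPS one by one, in 15 genotypes at 6 times. These differences too hold infiltration and time of day together with flg22. Of 810 gene and contrast pairs 8 were called, in 5 of the 9 genes, and 15.2% of all genes were called in at least 1 of these 90 contrasts. With a term for the replicate number, which marks a shared set of experiments, 21 pairs were called, the 8 among them. Without replicate 1, 2 and 3 the number was 2, 0 and 3.

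Of the single mutants, jEPS and JePS had called genes. PIP1E at 3 h had 134, 152 and 104 in jEPS, against 515.9, 346.2 and 396.8 in JEPS (difference -1.80, SE 0.47, q = 0.035). PIP1B at 2 h had 938, 1702 and 1683 in JePS, against 570.0, 529.1 and 549.6 in JEPS (difference 1.36, SE 0.33, q = 0.013). PIP2B at 2 h had 366, 525 and 822 in JePS, against 180.0, 98.2 and 162.0 in JEPS (difference 1.72, SE 0.39, q = 0.0060). In each case the 3 mutant libraries lay outside the JEPS range.

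The other 5 called pairs were at 18 h, in genotypes without PAD4 and ethylene signaling. PIP3A responses were higher than in JEPS in JepS (1.78), jepS (1.97), Jeps (2.16) and jeps (2.11), with q of 0.034, 0.012, 0.0034 and 0.0048. At 18 h PIP3A had 719, 695 and 647 in Jeps and 621.0, 641.6 and 487.5 in jeps, against 111.3, 106.8 and 157.5 in JEPS, and JEPS did not overlap with either. In jEPS it had 56.3, 67.7 and 64.6, below all JEPS libraries, though this pair was not called. PIP2E in jeps was the remaining call, at 1665, 2112 and 1409, against 508.1, 559.3 and 585.0 in JEPS (difference 1.44, SE 0.39, q = 0.041). Without 3 libraries that agreed poorly with their group, a choice made after the data were seen, the PIP3A call in JepS (1.68, q = 0.088) and the PIP2E call in jeps (q = 0.074) were lost.

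**Figure D5:**
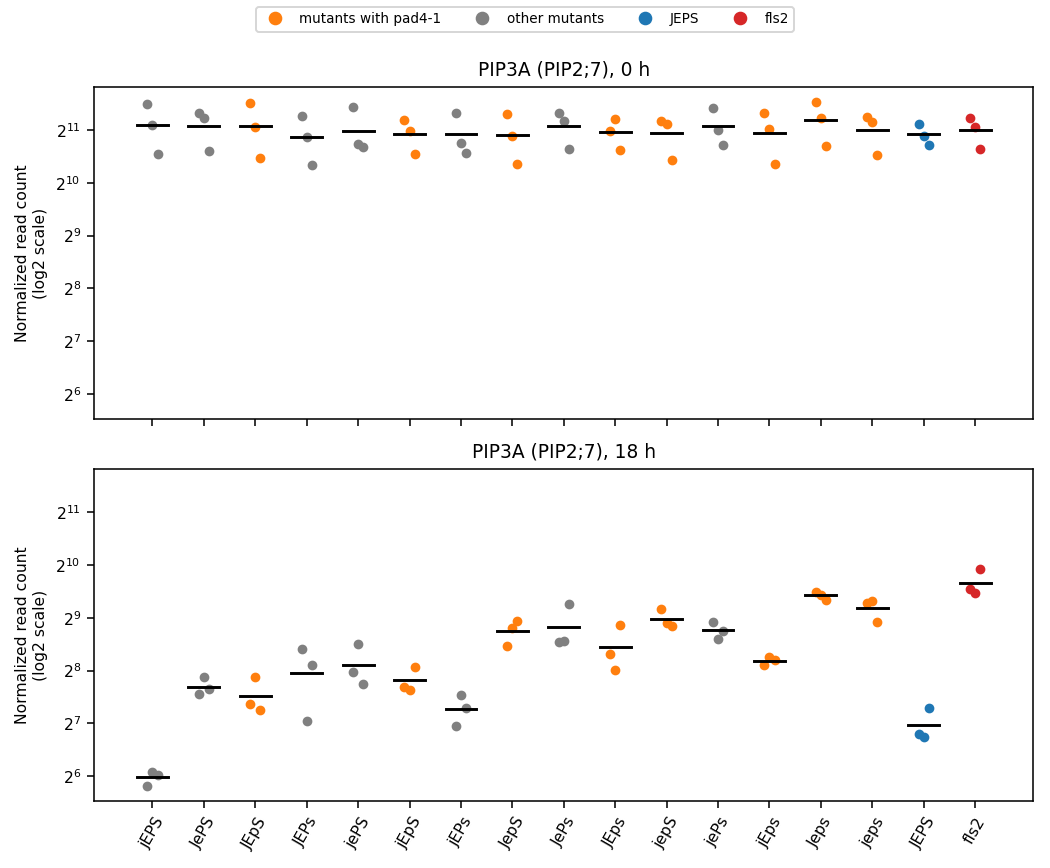
Normalized read counts (log2 axis, the same in both panels) of PIP3A in every genotype at 0 h (top) and 18 h (bottom), with 1 point per library and a bar at the mean of 3 libraries. Genotypes are ordered from single mutants to jeps, then JEPS and fls2, and at 18 h the 4 genotypes that lack both ethylene and PAD4 sectors (JepS, jepS, Jeps, jeps) stand above JEPS, as do the means of all mutants except jEPS.

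The PIP genes did not all share a pattern. Over the 119 group means, Pearson's r between pairs of the 9 genes ran from 0.01 (PIP2B and PIP2E) to 0.96 (PIP1D and PIP3A), with a median of 0.73 over 36 pairs, as a description of groups that share replicates and lanes. PIP2A was nearest to the mean pattern of the 9 genes (r = 0.98) and PIP2B farthest from it (r = 0.66), each of the 9 being part of that mean. The 5 other genes nearest to that mean pattern were CXIP1 (r = 0.97), AT3G21670, AT1G49500, the potassium transporter gene KUP11 and the photosystem I gene PSAD-2 (r = 0.96 each for the last 4).

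Related channels moved in the same comparison to different degrees. Of 3 other PIP genes 2 were tested and 0 were called. Their largest differences were 1.04 (SE 0.56) and -1.69 (SE 1.05). Their 0 h means in JEPS were low, at 185.7 and 11.8. Of 10 genes of the tonoplast aquaporins (TIPs), which carry water across the vacuole membrane, 4 were tested and all 4 were lower in JEPS at 1 or more times, the largest differences being -2.78 for TIP1;2 at 3 h, -2.43 for TIP2;1 at 18 h, -2.36 for TIP1;1 at 2 h and -2.09 for TIP2;2 at 2 h. Of 9 NIP genes 3 were tested and 1, NIP1;2, was higher (1.93 at 5 h), and of 3 SIP genes 3 were tested and 1, SIP1;1, was higher (1.31 at 9 h). Of all genes, 21.1% were called lower and 12.0% higher at 1 or more times.

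The called genes among the partners and regulators of PIPs were all higher in JEPS. Of 11 such genes 10 were tested. OST1 was lower at 1 h but not called (difference -2.04, q = 0.052 by edgeR's F-test). The 5 called genes were higher in JEPS, against 12.0% of all genes at 1 or more times, and 0 were called lower. They included BIK1, the receptor-associated kinase that phosphorylates targets in this pathway (3.18 at 18 h), RBOHD, the NADPH oxidase that makes apoplastic superoxide (2.88 at 1 h), the coreceptor kinase BAK1 (2.5 at 5 h) and the syntaxin SYP121, which delivers PIP proteins to the plasma membrane (2.5 at 5 h). Of 6 dehydration and abscisic acid markers 4 were tested and 3 were called lower in JEPS, against 21.1% of all genes. NCED3 (-3.36 at 2 h) had 12 to 21.8 in JEPS, against a 0 h mean of 62.7. RD29A (-2.53 at 3 h) and COR15A (-2.45 at 3 h) instead stood above their 0 h levels in both genotypes, and less so in JEPS. RD29A had 975.7 to 1495 in JEPS and 5433 to 8726 in fls2 at 3 h, against 42.0 in JEPS at 0 h. COR15A had 1629 to 2716 and 9641 to 19656, against 573.1.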

How the data were processed

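Stranded mRNA Tag-Seq libraries of 357 leaf samples were sequenced and aligned by the authors with Bowtie 0.12.8 to TAIR10, per the labels. The deposited table holds raw read counts per gene, and reads that map to 1 gene only were kept, so similar genes can lose reads. Counts were tested with edgeR 4.0.16 (R 4.3.3) by the quasi-likelihood F-test, with 119 group means, an offset set by the 90th percentile, dispersions from edgeR's mode without a design matrix, and Storey q-values pooled over each family of contrasts. As in the authors' filter, genes at 0 in at least 50 libraries and genes with a 15th highest count of at most 25 were removed. On the deposited table this left 11848 of 33600 genes, fewer than the study kept, for a reason not known here, and all shares of genes and q-values refer to these. The F-tests were computed from edgeR's dispersions by code of the same formula, whose p-values were checked against edgeR's own in 447 tests, 27 of them on PIP genes (largest difference 0.288 in log10 p, and 3.2e-08 for the PIP genes). The fit was also tested on simulated counts. A q-value pooled over a family is not the error rate of a single contrast. Depth was 372525 to 5130803 reads per library.

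The members and gene lists were chosen with earlier results of these data known. All 10 members are named, with the 5 genes nearest to their mean pattern and, of each list, up to 4 called genes with the largest difference. Replicates are pools of 4 experiments, each replicate number marking the same set in every genotype, and deviations from group means correlated by 0.0915 within a number, by 0.291 within a number and time, and by -0.0435 between numbers. Alternatives were TMM, no filter, a negative binomial model with z statistics, a replicate block, a lane term, each replicate left out, DESeq2 1.42.0 on 3 genotypes, Benjamini-Hochberg adjustment and other size limits. Upstream sequences are RefSeq's TAIR10.1.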

Additional observations from a re-analysis of the deposited data

Results flagged for a closer look

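In 8 cases the response of a PIP gene in a mutant (its change from 0 h) differed from that in JEPS. Calls were by the edgeR test of the difference itself (log2 values, q under 0.05 and beyond 1 in size). PIP1E differed by -1.80 in jEPS at 3 h. PIP1B differed by 1.36 and PIP2B by 1.72 in JePS at 2 h. At 18 h PIP3A differed by 1.78 in JepS, by 1.97 in jepS, by 2.16 in Jeps and by 2.11 in jeps, and PIP2E by 1.44 in jeps.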

How the results depend on the processing

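No called PIP value turned its direction in any alternative that was run. The 33 of 54 calls of JEPS against fls2 and the 28 of 54 of jeps against fls2 went to 15 to 25 and to 17 to 22 when a replicate was left out, and stayed within 1.5 times in every other alternative. The 8 of 810 calls of mutants against JEPS became 25 without the filter on low counts, 64 with the negative binomial model, 21 with the replicate block, 89 with the lane term and 0 to 3 with a replicate left out. The 51 of 252 mean effects became 82 with the negative binomial model, 84 with the lane term, 8 with a size limit of 1 added and 22 to 40 with a replicate left out. The 119 of 162 changes from 0 h and the 0 of 144 untreated differences stayed within 1.5 times. The summed level in JEPS at 3 h was 20.3% of 0 h by counts scaled to the library total (CPM) and 13.8% to 17.3% with a replicate left out. The replicate block lost none of the calls of the main comparisons. The causes were not tested. Fewer libraries enter the fits without a replicate. PIP3B, with at most 10 reads per library, could not be tested at this depth.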

Other observations

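Untreated leaves of replicate 3 stood apart from the other replicates in some PIP genes, in all 17 genotypes. PIP2A had 3414 to 5633 in the 17 untreated libraries of replicate 3, 7314 to 12018 in those of replicate 1 and 8238 to 12360 in those of replicate 2. PIP1D went the other way, with 3583 to 7111 in replicate 3, 1970 to 2820 in replicate 1 and 1897 to 3206 in replicate 2. PIP1C had 644.4 to 1310 in replicate 3, 1514 to 2492 in replicate 1 and 1408 to 2271 in replicate 2. For these 3 genes the range of replicate 3 overlapped with neither of the others. PIP3A had 1287 to 1692 in replicate 3, 2031 to 2945 in replicate 1 and 1696 to 2396 in replicate 2. Each replicate number stands for another set of 4 experiments, and the untreated libraries of replicate 3 were sequenced at another machine location than those of replicates 1 and 2, so experiments and location cannot be told apart. The replicate 2 libraries of 9 and 18 h, and 12 of 17 at 5 h, were also sequenced there, unlike their 0 h libraries. No comparison between replicate numbers was tested.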
